A study of Mus musculus with 7 samples.

Results

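The genes described here are DNA repair genes of the mouse, taken by name: every row of the deposited profiles whose gene symbol starts with Fanc, Brca, Rad and a digit, Xrcc, Ercc, or Msh or Mlh and a digit, or is Atm, Atr, Nbn, Mre11a or Lig4. The rule found 62 rows of 47 genes among 36733 rows, each row being 1 transcription start site (TSS). Atr and Fancd2 were not analysed here. The rule uses names only and no measured value, and 4 of the genes have a main role outside repair, namely Rad21 (cohesin), Ercc6l, Xrcc6bp1 and Rad54l2. The rows are not independent of each other: Rad54l, Rad18, Rad51l1, Msh5 and Xrcc6 have rows whose windows overlap, which leaves 56 windows without overlap.

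ChIP-seq was done on E14 mouse embryonic stem cells (ESCs) grown without feeders in medium with LIF, in 7 samples with 1 sample per condition. Flag antibody was used on cells whose endogenous Tip60 carried the H3F tag (Tip60-H3F), a histidine and Flag epitope tag present on 1 of the gene copies, upon GFP KD, the control knockdown, or Hdac6 KD, and on cells with endogenous Hdac6 tagged at its C terminus (Hdac6-H3F) upon GFP KD or Tip60 KD. The same antibody on wild-type cells without a tag (untagged) gives the background, and an antibody to endogenous p400 was used upon GFP KD and Hdac6 KD. Knockdown cells were collected 72 hr after lentiviral infection. For the Hdac6 ChIP upon Tip60 KD, the title and the genotype label name different knockdowns, the genotype label naming Hdac6; the title was followed. The files give no direct measure of knockdown, and the Hdac6 signal over all rows in that sample was 1.02 times that upon GFP KD. With 1 sample per condition no difference between conditions has a replicate check, and the identity of the cells cannot be checked from ChIP signal.

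Cells carry separate repair systems for separate kinds of DNA damage. Double-strand breaks are detected by the Mre11-Rad50-Nbn complex and the kinase Atm and repaired by homologous recombination or end joining, mismatches by Msh and Mlh proteins, bulky lesions by nucleotide excision repair, and crosslinks by the Fanconi anaemia pathway. Tip60 is a lysine acetyltransferase and p400 a SWI/SNF-type ATPase of the same complex, which binds near the TSSs of many genes and is itself known for a role in the response to double-strand breaks. Hdac6 is a deacetylase best known for its cytoplasmic targets, such as tubulin. What was measured here is how much of these proteins lay at the promoters of repair genes, not the activity of the genes.

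A value is coverage in RPM, the number of reads over a position per 1000000 reads of the library, averaged from −500 to 500 bp of the TSS unless another window is named. How the authors scaled it is not given in the sources used here. The values are whole multiples of the value of 1 read, which gives 9226709 to 31375600 normalizing reads per sample and 8 to 21 reads in the median promoter window. Isolated reads span 148 to 149 bp in the Hdac6 files and 299 bp in the others, longer than the methods of the study state, so that Hdac6 was compared with the untagged sample after scaling to the same span. In brackets behind ratios stand 95% exact conditional binomial (Clopper-Pearson) intervals of the reads. They cover counting error only, and since repeated reads were kept by the authors they are not intervals over independent molecules. Coordinates are mm9.

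Letters of a few promoters show what lies under these windows. RefSeq promoters were found for 35 of the 47 genes by symbol or synonym, and 33 of them lie letter for letter within 2000 bp of a row in the mm9 genome. The following stretches lie upstream of the start and outside annotated exons, and belong to the 4 genes with the highest p400 signal upon GFP KD among the 29 matched within 100 bp of the row's TSS, to Ercc2 with the lowest, and to Brca1. Capitals mark matches on either strand to GGGCGG (GC box), CCAAT or TTNGCGC (E2F).
Mre11a, chr9:14588848-14589097, plus strand: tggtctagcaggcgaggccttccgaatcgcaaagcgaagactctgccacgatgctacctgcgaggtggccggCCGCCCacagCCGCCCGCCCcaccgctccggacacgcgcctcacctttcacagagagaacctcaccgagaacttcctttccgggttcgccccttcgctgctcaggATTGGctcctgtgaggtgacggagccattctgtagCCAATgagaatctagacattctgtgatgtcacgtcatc
Ercc6, chr14:33326457-33326706, plus strand: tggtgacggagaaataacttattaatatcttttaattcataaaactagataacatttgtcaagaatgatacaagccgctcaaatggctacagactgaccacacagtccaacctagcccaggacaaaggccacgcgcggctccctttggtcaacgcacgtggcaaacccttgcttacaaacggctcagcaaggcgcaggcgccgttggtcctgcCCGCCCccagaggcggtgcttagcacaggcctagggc
Rad17, chr13:101421017-101421266, minus strand: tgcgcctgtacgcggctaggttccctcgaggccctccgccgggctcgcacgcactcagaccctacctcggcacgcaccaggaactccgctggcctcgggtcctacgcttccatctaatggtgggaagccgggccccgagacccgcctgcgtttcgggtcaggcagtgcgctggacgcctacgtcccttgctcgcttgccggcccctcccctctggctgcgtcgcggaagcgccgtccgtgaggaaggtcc
Xrcc4, chr13:90229389-90229463, minus strand: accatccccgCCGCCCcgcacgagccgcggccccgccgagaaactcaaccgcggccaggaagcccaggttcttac
Ercc2, chr7:19967116-19967358, plus strand: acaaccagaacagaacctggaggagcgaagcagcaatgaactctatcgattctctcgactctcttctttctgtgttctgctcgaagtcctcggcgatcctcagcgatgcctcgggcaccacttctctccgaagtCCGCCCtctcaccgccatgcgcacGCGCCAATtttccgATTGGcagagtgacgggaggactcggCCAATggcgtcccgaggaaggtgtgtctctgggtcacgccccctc
Brca1, chr11:101413270-101413462, minus strand: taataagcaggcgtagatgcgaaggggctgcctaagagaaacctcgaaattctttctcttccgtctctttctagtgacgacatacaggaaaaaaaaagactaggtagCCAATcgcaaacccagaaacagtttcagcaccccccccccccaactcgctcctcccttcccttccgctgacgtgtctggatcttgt

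The stretches differ in these motifs and in length, with 75 bases for Xrcc4, 193 for Brca1 and 250 for Mre11a, Ercc6 and Rad17. Their motif counts therefore cannot be ordered against p400. Mre11a holds 3 GC boxes and 2 CCAAT matches, Ercc6 and Xrcc4 hold 1 GC box each, Brca1 holds 1 CCAAT, and Rad17, with 29 CpG dinucleotides in 250 bases, holds none of them. In Ercc2 the E2F match overlaps a CCAAT match. From 250 bases before to 50 after the start, Xrcc4 holds 3 GC boxes, and Ercc6 and Brca1 hold 1 E2F match each. Over the RefSeq promoters from 250 bases before to 50 after the start, GGGCGG was in 20 of 33 repair genes (60.6%) and in 35.7% of all 32851 promoters of the table. CCAAT was in 19 (57.6%, against 37.4%), TTNGCGC in 7 (21.2%, against 6.36%), CCGGAAG (ETS) in 4 (12.1%, against 8.86%), the NRF1 motif in 1 (3.03%, against 0.971%) and TATAAA in 3 (9.09%, against 13.6%). Both strands were searched. A match is a description of letters, not of a bound site.

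Repair gene windows also share a base composition. The CpG ratio, observed over expected CpG, was at least 0.6 in 41 of 62 rows (66.1%) and in 45.7% of the 22704 rows with a RefSeq identifier, while the median GC content was 54.8% and 55.2%. A RefSeq gene on the other strand started within 1000 bp upstream of 11 rows (17.7%), against 6.37% of RefSeq rows. These head-to-head pairs include Brca1 with Nbr1 (282 bp apart), Rad17 with Taf9 (321 bp), Xrcc4 with Tmem167 (213 bp) and Rad1 with Brix1 (97 bp), so these windows cover the starts of both genes. At the other end, 7 rows lie over 1000 bp from any annotated start of their gene: the second rows of Brca1, Mlh3, Rad9 and Xrcc5, the later rows of Msh3 and the last of Msh4.

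p400 ChIP signal was high at most repair genes in control cells. Upon GFP KD the 62 rows averaged 0.345 RPM, with a range from 0.112 to 0.612, and the RefSeq rows averaged 0.254. The median repair row stood at the 74.8th percentile of all rows in that file, and 16 rows (25.8%) were among the highest 10%. The average profile peaked at 140 bp downstream of the TSS and the promoter window held 2.08 times the signal of the flanks at 1500 to 2000 bp, against 1.64 times over RefSeq rows. The samples hold no background for the p400 antibody, so how much of this rank is background was not tested. In the untagged Flag sample the median repair row stood at percentile 71.9 of its file, with 16 rows among the highest 10%.

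Upon Hdac6 KD the p400 signal of the repair genes was lower by a larger fraction than that of all rows. Their average was 0.189 RPM, a ratio of 0.549 to GFP KD (0.509 to 0.593) and a change of −45.1%, whereas all 22704 rows of the p400 files changed by −31.3%. Signal was lower by at least 1.5-fold at 41 of 62 rows (66.1%), against 44.8% of all rows tested, and higher by as much at 1 row, against 8.25%. The median log2 change was −0.90 for repair genes and −0.49 for all rows. Any decrease at all was seen at 57 of 62 rows (91.9%), against 73.5% of all rows. An interval wholly below 1 was found at 30 rows (48.4%), against 25.4% of all rows. An interval above 1 was found at 1 row, against 1.34%. Signal in the flanks of the repair rows was also lower, with 0.165 RPM upon GFP KD and 0.134 upon Hdac6 KD. Over all rows the flanks had 0.155 and 0.151. The promoter window over its own flank went from 2.08 to 1.41 at repair rows and from 1.64 to 1.16 over all rows. How much of the larger decrease at repair genes is specific to the promoter window was not tested.

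**Figure D1:**
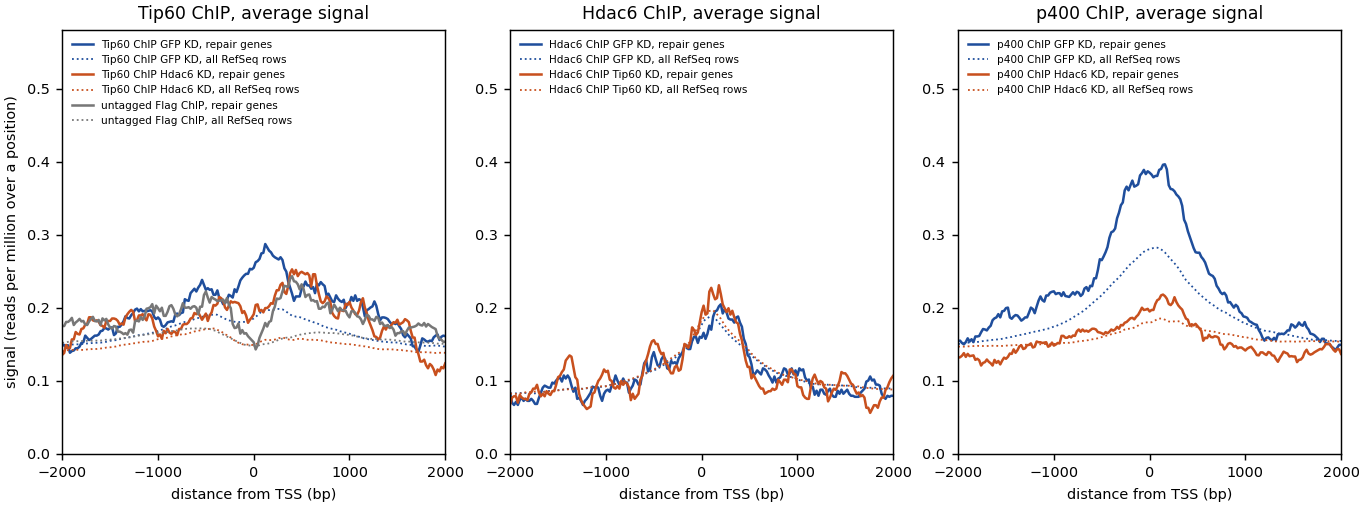
Average signal around the TSS in RPM (y axis) against distance in bp (x axis), for Tip60 and untagged (left), Hdac6 (middle) and p400 ChIP (right); solid lines are the 62 repair rows and dotted lines all 22704 RefSeq rows, with GFP KD in blue, the other knockdown in orange and untagged in grey, 1 sample each. The p400 line of repair genes peaked at 0.392 upon GFP KD and at 0.215 upon Hdac6 KD after smoothing over 100 bp.

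The decrease was not limited to 1 side of the TSS. From −100 to 300 bp the ratio was 0.542 (0.484 to 0.606) and from −600 to −200 bp it was 0.570 (0.503 to 0.646), against 0.663 and 0.707 over all rows. Repair gene rows also ranked lower among all rows than before: the median percentile was 53.2 upon Hdac6 KD, and 5 rows were among the highest 10%. The order of the rows was only partly kept, with Spearman's rho of 0.29 between the p400 samples over 56 windows, which share the antibody and the base composition of each window.

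p400 at the genes of double-strand break sensing and the checkpoint had the highest average of the role groups upon GFP KD. The 9 rows of this group, which include those of the checkpoint clamp, changed by −51.9% (−59.8 to −42.5). Of them, 8 (88.9%) were lower by at least 1.5-fold, against 44.8% of all rows. Mre11a, the nuclease of the break-sensing complex (chromosome 9, 14589151, plus strand, in an annotated UTR), had the highest p400 signal of all 62 rows, with 0.612 RPM (53 reads) upon GFP KD and 0.159 (17 reads) upon Hdac6 KD. That is a ratio of 0.259 (0.140 to 0.454), from the 98.6th to the 40.4th percentile. Rad50, the ATPase of the complex (chromosome 11, 53520821, minus strand), went from 0.576 to 0.197, a ratio of 0.342 (0.193 to 0.574). Nbn, the subunit that recruits Atm (chromosome 4, 15885114, plus strand), went from 0.344 to 0.149, a ratio of 0.434 (0.219 to 0.815). All 3 subunits had less p400 signal upon Hdac6 KD by more than counting error, against 25.4% of all rows. The other samples did not set Mre11a apart in the same way: Tip60 was 0.294 and 0.288 in control and Hdac6 KD cells, Hdac6 was 0.218 and 0.187 upon GFP KD and Tip60 KD, and untagged was 0.223.

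The genes of the checkpoint clamp, a ring of Rad9, Rad1 and Hus1 that Rad17 loads at damaged DNA, belong to the same 9 rows apart from Hus1. Rad17 (chromosome 13, 101421014, minus strand) changed from 0.534 to 0.202 and Rad1 (chromosome 15, 10415789, plus strand) from 0.441 to 0.164. Rad9b, a paralog of Rad9, changed from 0.459 to 0.164, while the first row of Rad9 (chromosome 19, 4201603, minus strand) kept more, with 0.557 and 0.356 and a ratio of 0.638 (0.406 to 0.998). For Hus1, a repair gene that the name rule does not cover, the ratio was 0.809 (0.433 to 1.5), so its interval holds no change.

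The second row of Rad9 was the exception. It lies in a coding exon 3823 bp downstream of the first annotated start (chromosome 19, 4197780, minus strand) and had 0.168 RPM (15 reads) upon GFP KD and 0.379 (41 reads) upon Hdac6 KD, a ratio of 2.26 (1.19 to 4.29). It ranked at the 99.8th percentile of all rows upon Hdac6 KD. The largest step between neighbouring positions in that window was 3 reads at a peak of 22 reads. Atm, the kinase downstream of the sensors (chromosome 9, 53342071, minus strand), has a window of low GC content (34.6%) and was low in both p400 samples, with 0.181 (16 reads) and 0.0919 (10 reads), and its interval of 0.205 to 1.18 includes no change.

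**Figure D2:**
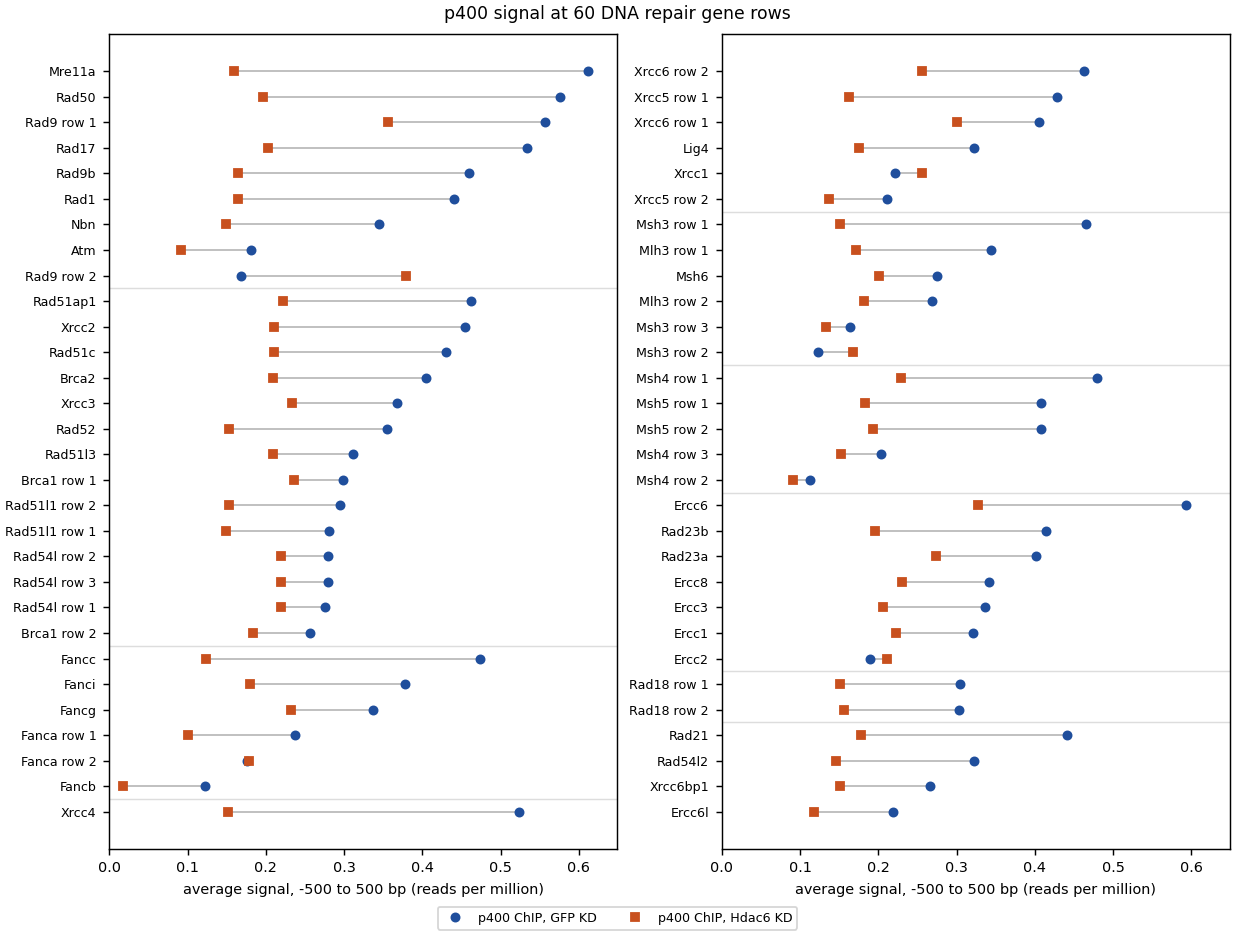
p400 signal in RPM (x axis, average from −500 to 500 bp) at 60 of the 62 repair rows (y axis), grouped by role with grey lines between roles; blue circles are GFP KD and orange squares Hdac6 KD, 1 sample each. At 55 of these rows the orange square lies left of the blue circle, where 73.5% of all rows were lower. The second row of Rad9 (0.168 and 0.379) shows the largest shift to the right.

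Genes of homologous recombination had less p400 signal upon Hdac6 KD at all 15 rows, where 73.5% of all rows were lower. By at least 1.5-fold, 9 of the 15 (60%) were lower, against 44.8% of all rows. The 15 rows include overlapping rows of Rad54l and Rad51l1. The group changed by −41.8% (−50.5 to −31.6). Brca2, a mediator of strand exchange (chromosome 5, 151325198, plus strand), went from 0.404 to 0.209, a ratio of 0.516 (0.283 to 0.889). Rad51ap1 had the highest signal in the group (0.462, then 0.222), followed by Xrcc2 (0.454, then 0.211). In all, 6 of the 15 rows had an interval below 1, against 25.4% of all rows, and these 3 genes are among them.

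Brca1, which acts with Bard1 early in recombination, was among the rows whose interval included no change. Its first row (chromosome 11, 101413187, minus strand) had 0.299 RPM (26 reads) upon GFP KD and 0.236 (25 reads) upon Hdac6 KD, a ratio of 0.788 (0.43 to 1.4). In the Flag samples it had 0.179 and 0.369 for Tip60 upon GFP KD and Hdac6 KD, 0.142 and 0.0999 for Hdac6 upon GFP KD and Tip60 KD, and 0.199 untagged, so that Tip60 upon Hdac6 KD was its highest Flag value. The second row, in an intron, had 0.256 and 0.184. The 3 overlapping rows of Rad54l, a translocase of homologous recombination, were alike in ratio, from 0.782 to 0.8. Bard1, the partner of Brca1, had a ratio of 0.389 (0.214 to 0.697), and whether it differs from that of Brca1 was not tested.

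Among genes of the Fanconi anaemia pathway, 4 of 6 rows (66.7%) had lower p400 signal by at least 1.5-fold, against 44.8% of all rows. Fancc, a core complex subunit (chromosome 13, 63533053, minus strand), went from 0.474 (41 reads) to 0.123 (13 reads), a ratio of 0.260 (0.126 to 0.487). Fancb, another core subunit on the X chromosome (161418644, plus strand), had the lowest p400 value upon Hdac6 KD, 0.0169 (2 reads) after 0.122 (11 reads), a ratio of 0.138 (0.0158 to 0.672). Its Tip60 signal was low as well, with 7 reads upon GFP KD and 1 read upon Hdac6 KD. Fanci (chromosome 7, 86544022, plus strand, in a coding exon 7207 bp downstream of the first annotated start) went from 0.378 to 0.180, but it was the repair row with the highest signal in the untagged sample, 0.453 (36 reads), at the 99.8th percentile of that file. The first row of Fanca went from 0.237 to 0.100, and its second, in a coding exon, was 0.176 and 0.178.

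For end joining, the group changed by −44.1% (−55.8 to −29.4), with 5 of 7 rows (71.4%) lower by at least 1.5-fold, against 44.8% of all rows. Xrcc4, the scaffold of the ligase that seals breaks (chromosome 13, 90229128, minus strand), went from 0.524 (45 reads) to 0.152 (16 reads), a ratio of 0.290 (0.151 to 0.517). Lig4, the ligase itself (chromosome 8, 9976323, minus strand), went from 0.322 to 0.175, a ratio of 0.543 (0.289 to 1.02). The Ku proteins bind broken ends as a pair. The first row of Xrcc5, which encodes Ku80 (chromosome 1, 72354028, plus strand), went from 0.428 to 0.163, a ratio of 0.381 (0.196 to 0.675). The first row of Xrcc6, which encodes Ku70 (chromosome 15, 81845949, plus strand), went from 0.405 to 0.301 and its second row, 850 bp further on, from 0.463 to 0.256. Xrcc1, a scaffold of single-strand break repair (chromosome 7, 25331314, plus strand), was not lower (0.221, then 0.256). Its row lies 855 bp from the nearest annotated start.

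Mismatch repair changed by −39.9% (−52.7 to −23.8) with 3 of 7 rows lower by at least 1.5-fold, a share (42.9%) near the 44.8% of all rows. The first row of Msh3, which recognizes loops (chromosome 13, 93124958, minus strand), went from 0.466 to 0.151, a ratio of 0.323 (0.169 to 0.589). Its other 2 rows lie 33815 and 24970 bp from any annotated start and had 0.122 and 0.163 upon GFP KD and 0.167 and 0.133 upon Hdac6 KD. Msh6, which recognizes base mismatches (chromosome 17, 88374424, plus strand), went from 0.275 to 0.201. The meiotic relatives Msh4 and Msh5, which act at crossovers, were lower by at least 1.5-fold at 3 of 5 rows (60%, against 44.8% of all rows). Values were 0.479 and 0.229 at the first row of Msh4 and 0.408 and 0.182 at that of Msh5.

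Nucleotide excision repair changed least of the groups with over 2 rows, by −35.8% (−47.5 to −21.5) against −31.3% over all rows, with 3 of 7 rows lower by at least 1.5-fold (42.9%, against 44.8%). Ercc6, which couples the pathway to transcription (chromosome 14, 33326707, plus strand), went from 0.593 (51 reads) to 0.327 (35 reads) and stayed high in rank, at percentiles 98.3 and 98.8. Rad23b, a partner of the damage sensor Xpc, went from 0.414 to 0.196. Ercc1, a subunit of the 5′ nuclease, was 0.321 and 0.222, and Ercc2, a helicase of TFIIH, was low in both samples with 0.189 and 0.211. The 2 overlapping rows of Rad18, a ubiquitin ligase of post-replication repair, went from 0.304 to 0.151 and to 0.156. Rad21, whose product is a cohesin subunit, went from 0.442 to 0.178. All 4 rows of genes with another main role were lower by at least 1.5-fold, against 44.8% of all rows.

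The size of the p400 change differed with the base composition of the window. At the 41 repair rows with a CpG ratio of at least 0.6 the ratio was 0.483 (0.442 to 0.529), and 36 of them (87.8%) were lower by at least 1.5-fold. At the 21 rows under 0.6 the ratio was 0.754 (0.653 to 0.869), with 5 rows (23.8%) lower. The same split over all RefSeq rows gave 0.553 with 69.4% lower and 0.898 with 23.3% lower. The average change of repair genes was larger than that of all RefSeq rows in either class, −51.7% against −44.7% and −24.6% against −10.2%. Under 0.6, however, the share of rows lower by at least 1.5-fold was near that of all RefSeq rows. The change of each row was also set against the average change of all rows of the same GC content. Relative to these, repair genes stood at a ratio of 0.781, with 22 rows lower by at least 1.5-fold. The share of all rows past 1.5-fold under this setting was not computed. With the flank average of all rows subtracted, the ratio to GFP KD was 0.204 for repair genes and 0.244 for all rows. This setting does not use the flank of the repair rows themselves, which was lower upon Hdac6 KD. Without the 7 rows over 1000 bp from any annotated start, the ratio to GFP KD was 0.521 (0.480 to 0.565), 40 of 55 rows were lower and 0 were higher by at least 1.5-fold, and at those 7 rows it was 0.958 (0.747 to 1.23).

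**Figure D3:**
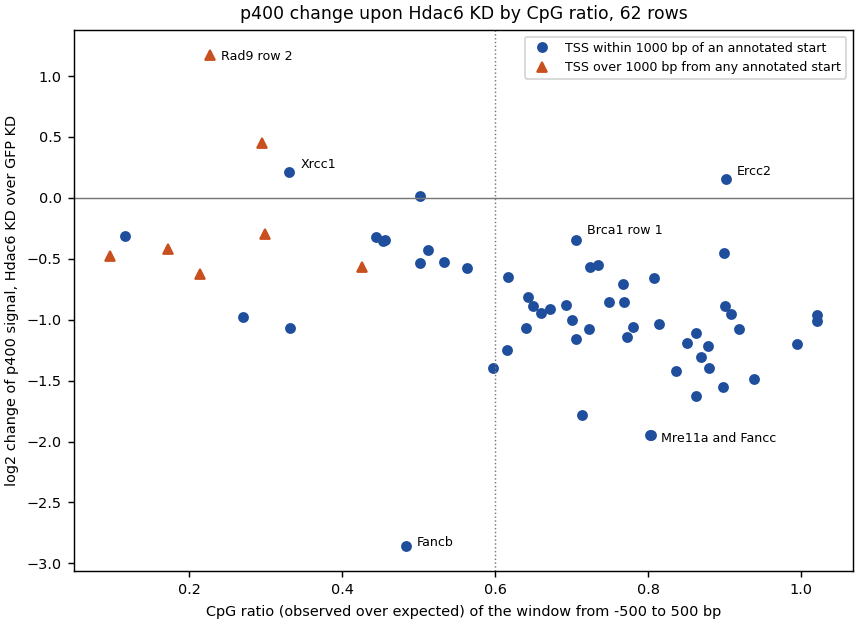
Log2 change of p400 signal upon Hdac6 KD (y axis) against the CpG ratio of the window (x axis) for the 62 repair rows; blue circles have their TSS within 1000 bp of an annotated start, orange triangles do not, the dotted line marks a CpG ratio of 0.6. Of the 41 rows right of that line, only Ercc2 lies above 0, and the second row of Rad9 has the highest value, 1.17.

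Tip60 at repair genes exceeded the untagged background mainly downstream of the TSS. Upon GFP KD the 62 rows averaged 0.240 RPM against 0.197 in untagged cells, a ratio of 1.22 (1.11 to 1.34), while all rows had 1.17. With the flank average of all rows subtracted the ratio was 2.01 at repair genes and 10.4 over all rows. The 10.4 rests on a small denominator, as the untagged average over all rows, 0.154 RPM, was close to its flank, 0.151. Tip60 was higher than untagged by at least 1.5-fold at 24 rows (38.7%), against 29.8% of all rows tested, and lower by as much at 8 rows, against 15.3%. At 2-fold it was higher at 7 of 62 rows, against 14.3% of all rows. From −100 to 300 bp the ratio was 1.5 (1.3 to 1.73) and from −600 to −200 bp it was 1.08 (0.93 to 1.24), against 1.22 and 1.11 over all rows. The untagged sample was itself high at repair genes, with a median percentile of 71.9 and 16 rows among its highest 10%.

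Only 4 repair rows had more Tip60 than untagged signal by more than counting error (6.45%, against 8.41% of all rows). They were Fancc (0.340 and 0.131, ratio 2.59, 1.26 to 6.33), Nbn (0.277 and 0.111, ratio 2.50), the first row of Msh3 (0.270 and 0.119, ratio 2.26) and Rad9b (0.417 and 0.221, ratio 1.89). The highest Tip60 values were at Rad50 (0.425 against 0.308 untagged), Ercc6 (0.422 against 0.259) and Rad9b. At Fanci (0.170 against 0.453) and the third row of Msh3 the untagged sample was higher by more than counting error (3.23%, against 2.21% of all rows). By role, the ratio was 1.61 (1.23 to 2.11) for nucleotide excision repair, 1.5 (1.21 to 1.87) for break sensing and checkpoint, and 0.808 (0.584 to 1.11) for the Fanconi anaemia pathway. Rows with a CpG ratio of at least 0.6 had a ratio of 1.37 (1.23 to 1.53), and the others 0.945 (0.799 to 1.12).

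Upon Hdac6 KD, Tip60 signal at repair genes was lower by about as much as at all rows. The average was 0.210 RPM, a ratio of 0.874 (0.794 to 0.962) to GFP KD and a change of −12.6%, against −15.1% over all rows. With the flank average of all rows subtracted the ratio was 0.768, against 0.423 over all rows. These ratios cannot be compared with each other, since untagged signal was higher at repair rows (0.197 RPM) than over all rows (0.154). Lower signal by at least 1.5-fold was found at 17 of 61 rows (27.9%), against 34.6% of all rows tested, and higher signal at 7, against 15.2%. From −100 to 300 bp the change was −23.5% (−34.0 to −11.5), against −18.0% over all rows, and from −600 to −200 bp it was −9.83% (−22.8 to 5.20). Set against the average change of rows of the same GC content, the change of repair genes stood at a ratio of 1.04. On that scale 10 rows were lower and 12 higher by at least 1.5-fold. The shares of all rows for these 2 counts were not computed. In the Hdac6 KD sample the Tip60 signal of repair genes was 1.07 times (0.968 to 1.18) that of untagged cells, an interval that includes no difference. Over all rows it was 0.993 times.

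**Figure D4:**
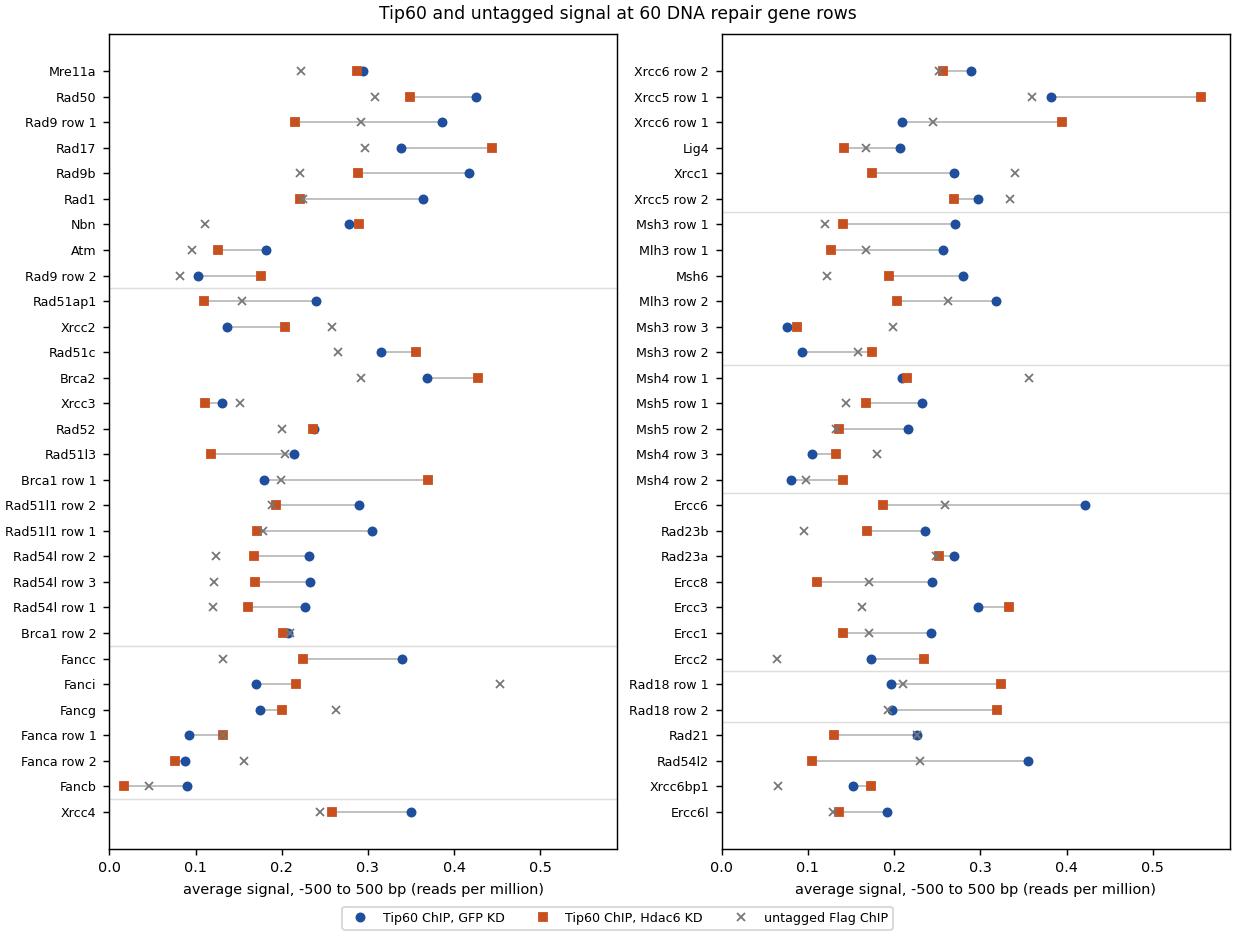
Flag ChIP signal in RPM (x axis, average from −500 to 500 bp) at 60 of the 62 repair rows (y axis), grouped by role; blue circles are Tip60 upon GFP KD, orange squares Tip60 upon Hdac6 KD and grey crosses the untagged cells, 1 sample each. Tip60 upon GFP KD lies right of the cross at 42 of these rows and right of Tip60 upon Hdac6 KD at 38. Over all rows these shares were 58.3% and 61.0%.

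Single genes were rarely separable for Tip60 at this depth. Only Rad54l2 (0.356 then 0.104, 26 and 7 reads, ratio 0.294, 0.110 to 0.709) and Ercc6 (0.422 then 0.187, 31 and 12 reads, ratio 0.444, 0.202 to 0.863) were lower by more than counting error, which is 3.28% of rows against 9.06% of all rows. Ercc8 (0.244 then 0.111, ratio 0.452, 0.153 to 1.09) and Rad51ap1 (0.240 then 0.109, ratio 0.457, 0.161 to 1.16) were among the 5 largest decreases of rows with at least 10 reads, and their intervals include no change. Brca1 went the other way at its first row, from 0.179 (13 reads) to 0.369 (24 reads), a ratio of 2.06 (1.01 to 4.4), the 1 row higher by more than counting error (1.64%, against 2.76%). The first row of Xrcc6 went from 0.209 to 0.395 (ratio 1.89, 0.985 to 3.92) and that of Xrcc5 from 0.382 to 0.556. At Xrcc5 the Hdac6 KD sample has a step of 9 reads between neighbouring positions, the largest of any repair row.

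By role, the Tip60 change was −33.6% (−51.7 to −9.42) in mismatch repair, −24.3% (−42.5 to −0.785) in nucleotide excision repair and −41.3% (−62.2 to −10.4) at the 4 rows of genes with another main role. The overlapping rows of Rad18 changed by 63.3% with an interval of −20.8 to 247, and the intervals of break sensing, recombination, end joining, the Fanconi anaemia pathway and the meiotic genes included no change. Within the break-sensing complex the Tip60 values of Mre11a and Nbn were close in both samples, and that of Rad50 was lower upon Hdac6 KD within counting error. At Mre11a and Rad50 Tip60 upon GFP KD was itself not separable from untagged. At Mre11a Tip60 was 0.294 and 0.288 (21 and 19 reads), at Nbn 0.277 and 0.290, and at Rad50 0.425 and 0.349. Both proteins were lower by at least 1.5-fold at 12 of 61 rows (19.7%), near the 17.1% of all rows tested for both, among them Ercc6, Fancc, Mlh3, Msh3, Msh5, Rad1, Rad21, Rad51ap1, Rad51l1, Rad54l2 and Rad9. At 20 of 62 rows (32.3%) p400 was lower and Tip60 higher by any amount, against 25.6% of all rows. The Tip60 and p400 samples come from different antibodies, and the difference between their changes was not tested.

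Hdac6 signal at repair genes was above the untagged background by less than at all rows. Upon GFP KD the 62 rows averaged 0.157 RPM, against 0.0977 for the untagged sample scaled to the same span, a ratio of 1.61 (1.45 to 1.78), while all rows had 1.84. Higher signal by at least 1.5-fold was found at 35 of 61 rows (57.4%), against 59.3% of all rows tested, and lower signal at 4, against 10.4%. From −100 to 300 bp the ratio was 2.01 (1.72 to 2.35), against 2.14 over all rows. From −600 to −200 bp it was 1.24 (1.05 to 1.46), against 1.47, but with equal totals over all rows this upstream ratio turned to 0.900. With equal totals the rows past 1.5-fold became 16 of 61 higher and 9 lower, against 40.6% and 18.8% of all rows. The average profile peaked at 200 bp downstream of the TSS. The median repair row stood at percentile 56.1 of the Hdac6 file, compared with 76.7 in the Tip60 and 74.8 in the p400 file.

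Hdac6 was highest at Rad17, at 0.525 RPM (42 reads, the 99.9th percentile) upon GFP KD and 0.482 (31 reads) upon Tip60 KD. Tip60 there was 0.338 in control cells and 0.444 upon Hdac6 KD, and untagged was 0.296 before scaling. The ratio of Hdac6 to the scaled untagged signal was 3.56 (2.14 to 6.36). In all, 14 of 61 rows (23.0%, against 33.5% of all rows) were above untagged by more than counting error. Among them were Rad23b (ratio 4.8, 1.86 to 11.9), Ercc2 (3.55), the first row of Msh3 (3.54), Msh6 (3.38), Xrcc3 (3.08) and Xrcc6bp1 (5.12). Fanci was below it (0.353, 0.115 to 0.798), the 1 such row (1.64%, against 1.19%), and the first row of Xrcc5, with 0.0897 RPM, had a ratio of 0.502 (0.184 to 1.17). The lowest Hdac6 values were at the second row of Msh4 (1 read) and at Atm (3 reads).

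**Figure D5:**
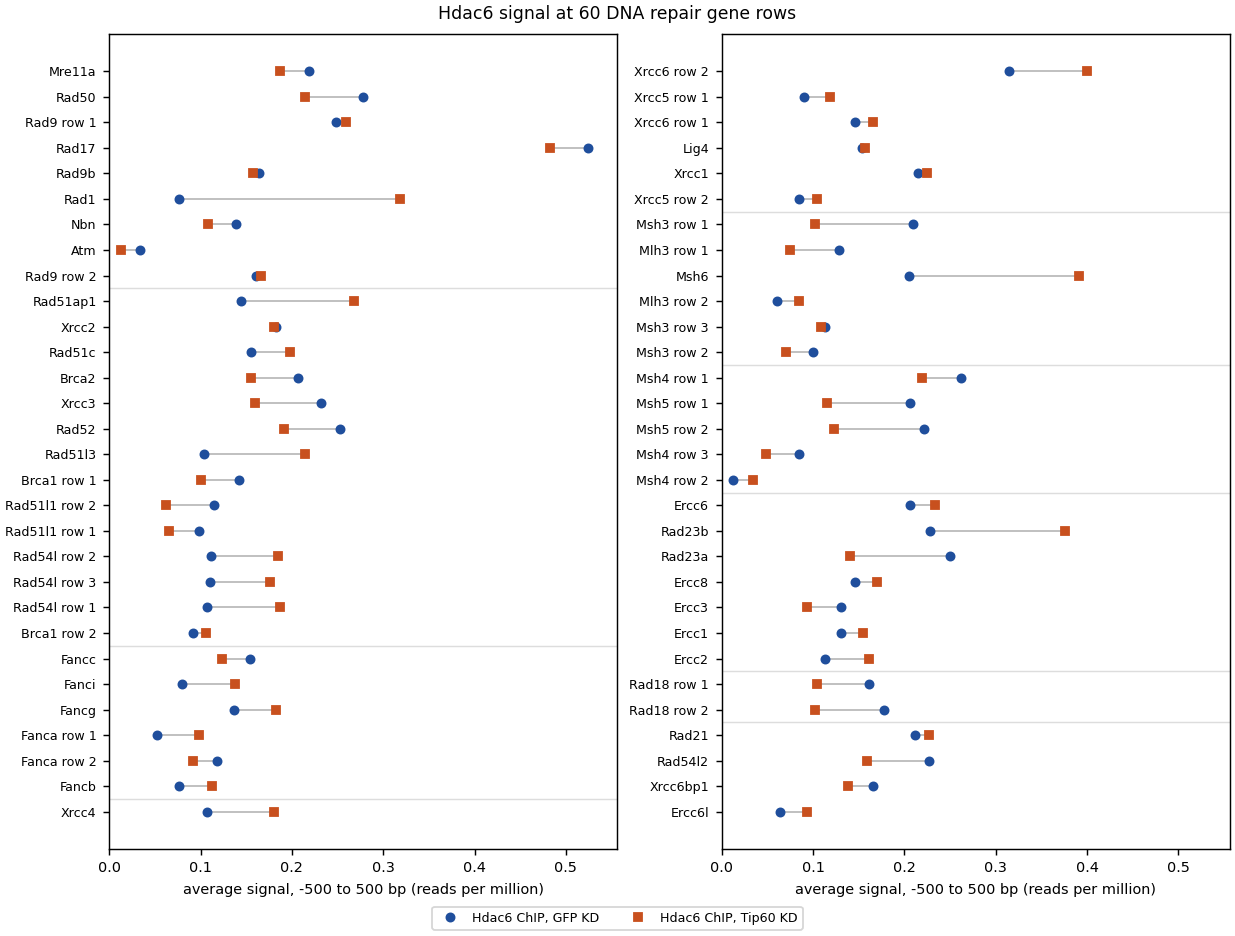
Hdac6 signal in RPM (x axis, average from −500 to 500 bp) at 60 of the 62 repair rows (y axis), grouped by role; blue circles are GFP KD and orange squares Tip60 KD, 1 sample each. Rad17 has the highest value in either sample (0.525 and 0.482), and Rad1 shows the largest shift to the right (0.0762 and 0.319).

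Upon Tip60 KD, Hdac6 signal at repair genes was close to that upon GFP KD. The average was 0.164 RPM, a ratio of 1.05 (0.936 to 1.17), against 1.02 for all rows. Higher signal by at least 1.5-fold was found at 12 of 60 rows (20.0%), against 18% of all rows tested, and lower signal at 9 (15.0%), against 16.8%. Rad1 changed most, from 0.0762 (6 reads) to 0.319 (20 reads), a ratio of 4.19 (1.62 to 12.7). Msh6 went from 0.205 (16 reads) to 0.391 (25 reads), a ratio of 1.91 (1.01 to 3.93), and no other row was separable by counting error, against 1.89% higher and 1.19% lower of all rows. Among rows with at least 10 reads, the first row of Msh3 had the largest decrease, from 0.210 to 0.102, with an interval of 0.143 to 1.18.

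Across the repair genes the 3 proteins had partly shared levels. Upon GFP KD, Spearman's rho over the 56 windows without overlap was 0.64 between Tip60 and p400 and 0.59 between Hdac6 and p400. It was 0.47 between Tip60 and the untagged sample and also 0.47 between p400 and the untagged sample. Windows share base composition and mappability between samples, so these values describe the windows and are not a measure of joint binding.

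Values were also taken for repair genes outside the name rule. A list of 67 further repair genes, among them base excision enzymes, checkpoint kinases and translesion polymerases, has 83 rows of 61 genes. Their p400 signal changed by −39.5% upon Hdac6 KD (−43.5 to −35.3), with 46 of 83 rows lower (55.4%, against 44.8% of all rows) and 2 higher (2.41%, against 8.25%) by at least 1.5-fold. Examples are the checkpoint adaptor Mdc1, from 0.569 to 0.199, and the damage sensor Xpc, from 0.497 to 0.235. The poly(ADP-ribose) polymerase Parp1 had 0.315 and 0.197, with an interval of the ratio from 0.337 to 1.15. Their Tip60 signal was 1.35 times untagged (1.24 to 1.47) and changed by −9.58% upon Hdac6 KD (−16.8 to −1.73), with 27 of 82 rows lower (32.9%, against 34.6%) and 13 higher (15.9%, against 15.2%). Their Hdac6 signal was 2.01 times the scaled untagged value (1.84 to 2.20), and that of the genes chosen by name 1.61 (1.45 to 1.78).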

How the data were processed

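The authors mapped single-end reads to mm9 with Bowtie after base calling with CASAVA 1.8.2, per the submitters' processing notes and the study's methods. They collapsed reads by sequence with occurrences kept, permitted up to 1 mismatch, assigned multiply mapping reads to a random match, and extended them. The deposited values are coverage signal around each TSS from −2000 to 2000 bp, every 20 bp (201 positions). The Flag files hold 36733 rows and the p400 files 22704, and how the authors scaled the signal is not given in the sources used here. Rows were joined by RefSeq identifier and file order: all 18276 identifiers had the same number of rows in both kinds of file, and file order gave the better match in 1284 of 1286 testable pairs, swapped order in 0. For 14842 rows the position plus 1 is an annotated start in the mm9 annotation. Summed signal was divided by 1 read's value and span to give reads per window. Ratios are of average signals over rows; rows needed at least 10 reads over both samples to enter counts past 1.5-fold and medians. Repair genes and lists were chosen with earlier results of these data known, and the named genes are 20 fixed names, the 2 highest and the lowest p400 rows of each role, and the 5 largest decreases and increases in each comparison. Other members and genes of the longer list were named for their role or counting interval after their values were seen. Calculations used Python 3.11.15, numpy 2.4.6, scipy 1.17.1 and matplotlib 3.10.9 and were tested on simulated data. Alternatives were other windows, scaling, background, rows and thresholds. Single results of 2 rows that the rule covers are not reported here, and both rows stay in every count.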

Additional observations from a re-analysis of the deposited data

Results flagged for a closer look

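Both rows of Rad18, which overlap almost fully and so are 1 observation, stood out because Tip60 and p400 differed in direction upon Hdac6 KD, each by at least 1.5-fold. At the first row the log2 change was 0.72 for Tip60 (14 and 21 reads) and −1.01 for p400 (26 and 16 reads), and at the second row it was 0.69 and −0.96. The difference between the proteins was not tested, each change rests on 1 sample per condition, and the Tip60 intervals of 0.810 to 3.55 include no change.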

How the results depend on the processing

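No paired analysis was possible because each condition has 1 sample and the labels give no replicate numbers. Of 82 recomputed ratios and ranks, 63 stayed within the 95% interval of the reported value, a counting interval for ratios and an exact binomial interval over rows for shares in the highest 30%. The window within 250 bp of the TSS moved Tip60 over untagged to 1.48, Hdac6 over untagged to 1.94, Tip60 upon Hdac6 KD to 0.787 and the share of rows in the highest 30% of the untagged file to 35.5%, from 51.6%. The window within 1000 bp of the TSS moved Hdac6 over untagged to 1.33 and p400 upon Hdac6 KD to 0.609. Equal totals, which shift the median log2 of all rows by −0.46 in Hdac6 over untagged, 0.15 in Tip60 and 0.28 in p400 upon Hdac6 KD, gave 1.17, 0.967 and 0.665. In the downstream window they gave 1.46 for Hdac6 over untagged and 0.656 for p400, and in the upstream window 0.690 for p400 and, reversed, 0.900 for Hdac6 over untagged. Subtracting the flank average of all rows gave 2.01, 3.04, 0.768 and 0.204 for Tip60 over untagged, Hdac6 over untagged, and Tip60 and p400 upon Hdac6 KD. Over all rows the same setting gave 10.4, 34.6, 0.423 and 0.244. The untagged promoter average over all rows, 0.154 RPM, was close to its flank, 0.151. Relative to the average change of rows of the same GC content, p400 stood at 0.781 and Tip60 at 1.04. These values compare repair genes with other rows, not with GFP KD, so they do not reverse the decreases given above. The cause of these shifts was not tested, apart from what each setting does by construction. Among counts past 1.5-fold, 37 of 126 moved by over 1.5 times. For p400 the 41 lower rows became 26 at 2-fold (background 21.9%) and 22 relative to GC content, and the 1 higher row became 2 or 3, or 0 without rows away from annotated starts and with 1 value per gene. For Tip60 upon Hdac6 KD the 17 lower and 7 higher rows became 6 and 1 at 2-fold (background 19.0% and 6.76%) and 10 and 12 relative to GC content. No share over all rows was computed for the counts relative to GC content, which count changes relative to other rows and not to GFP KD. For Tip60 over untagged the 24 higher rows became 10 of 62 within 1000 bp and 7 of 62 at 2-fold. Over all rows these shares were 19.7% and 14.3%. For Hdac6 over untagged the 35 higher rows became 20 of 62 within 1000 bp and 17 of 61 at 2-fold. Under equal totals they became 16 of 61, with 9 lower. Over all rows the higher shares were 48.9%, 42.5% and 40.6%, and 18.8% were lower under equal totals. Non-overlapping windows and rows near annotated starts were chosen as alternatives after seeing the data. Depth limits single rows: with 8 to 21 reads in the median window, many rows past 1.5-fold have an interval that includes no change (11 of the 41 lower p400 rows, 15 of the 17 lower Tip60 rows).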
